A study of Mus musculus with 8 samples.

Results

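Lysosomes are the acidic compartments in which cells digest proteins, lipids and sugars delivered by endocytosis and autophagy. Cathepsins are their main proteases, other soluble hydrolases cleave glycans and lipids, membrane proteins line the compartment, and the vacuolar proton pump built from Atp6v subunits keeps it acid. In plasmacytoid dendritic cells (pDC), the dendritic cells that sense nucleic acids and make type I interferon, proteases of this compartment cut endosomal Toll-like receptors (TLR) such as TLR9, and they also process antigen and the class II invariant chain. A panel of 38 lysosomal genes was followed here, and probes that carry the gene's own name on the array were found for 37 of them. Each gene was read from its brightest probe, of 36095 features on the array in all. They comprise 8 cathepsins, 12 other hydrolases, 9 membrane proteins, 5 Atp6v subunits and 3 cofactors. Tfeb, a transcription factor of lysosomal genes, appears on the array as Tcfeb and was kept apart from these counts.

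The cells came from Flt3 ligand cultures of bone marrow precursors of female BALB/c mice, an inbred strain. They were separated by magnetic and flow cytometric sorting into pDC without surface Sca-1 (Sca-1-, 4 samples) and pDC with it (Sca-1+, 4 samples), and both groups carry the same genotype and had no other treatment named in the labels. The sources used here give no age. The labels do not say whether replicates are separate cultures or mice, and every p-value below therefore reflects the scatter of these 8 samples, part of which may be technical. The study's title asks whether Sca-1 marks stages of pDC that differ in the endosomal but not the lysosomal TLR9 response.

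A level is the log2 processed spot intensity of 1 probe minus the array's 75th percentile, and levels of different probes were not set against each other. That percentile was a processed intensity of 152 to 434 over the 8 arrays, and 45.9% to 54.9% of spots were well above background. Same-numbered samples of both groups shared a slide, with Sca-1- at array position 1 and Sca-1+ at position 2 each time, so position and group cannot be told apart. Slide 4 was extracted with another protocol version than slides 1 to 3. Ly6a, the gene of Sca-1, was 25.1-fold higher in Sca-1+ samples, which checks the labels. All 12 pDC markers examined were measured on at least 4 arrays. So were 9 of 11 conventional DC markers, 6 of 7 for basophils and mast cells and 6 of 9 for neutrophils. Among markers with a probe, 6 of 13 for macrophages and monocytes, 4 of 9 for B cells, 4 of 11 for T and NK cells and 2 of 6 erythroid ones were too. In sorted bulk samples, fewer cells of a type and less RNA per cell cannot be told apart.

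The probes of 4 of the genes described below are shown to identify what was measured. The first 30 of their 60 bases are given in lower case from the 5′ end, with nothing capitalised. The Ctsl probe covers chromosome 13, 64465287 to 64465346 (mm9, minus strand), the Ctsb probe chromosome 14, 63761906 to 63761965 (plus strand), the Lipa probe chromosome 19, 34567717 to 34567776 (minus strand) and the Mcoln1 probe chromosome 8, 3515110 to 3515169 (plus strand). Whether they lie in coding exons or untranslated regions was not analysed here.
Ctsl: accaaacccttattgagtcaaaccatggta
Ctsb: ttaccacttaaccctgtagtttaacaagga
Lipa: ctgttgtttgctagcaaaaataagtctgcc
Mcoln1: tttttagaatttgctttaaaagatctgcgt

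Lysosomal genes were expressed in both populations, and none differed enough to pass the test over all genes. All 37 were well above background on all 8 arrays, and limma with Benjamini-Hochberg adjustment called 0 of 37, against 1.71% of all 19825 tested genes (smallest adjusted p = 0.205, for Lipa). At an unadjusted p under 0.05, 4 were higher in Sca-1+ pDC (Ctsl, Ctsb, Lipa and Neu1) and 0 were lower, where 3.12% of all tested genes were higher and 5.84% lower. With the slide as a block, limma called 1 member, Ctsl, as higher (adjusted p = 0.0405), against 6.22% of tested genes in either direction (2.1% higher and 4.12% lower). At an unadjusted p under 0.05 the blocked fit had 12 members higher and 0 lower, where 12.5% of tested genes were higher and 11.8% lower.

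Small differences leaned one way. Of the 37 genes, 29 had a positive difference, against 55.4% of all tested genes, and the median difference was 0.15 on the log2 scale, against 0.03 over all tested genes. Sca-1+ was above Sca-1- on all 4 slides for 20 of 37 members, against 18.4% of tested genes, and below it on all 4 for 3 members, against 17.8%. The remaining 14 took both signs over the slides. The median of the members was 0.18, 0.13, 0.10 and 0.11 on slides 1 to 4, and leaving out a sample moved it to 0.079 (Sca-1+ replicate 4) or 0.23 (Sca-1- replicate 4).

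**Figure D1:**
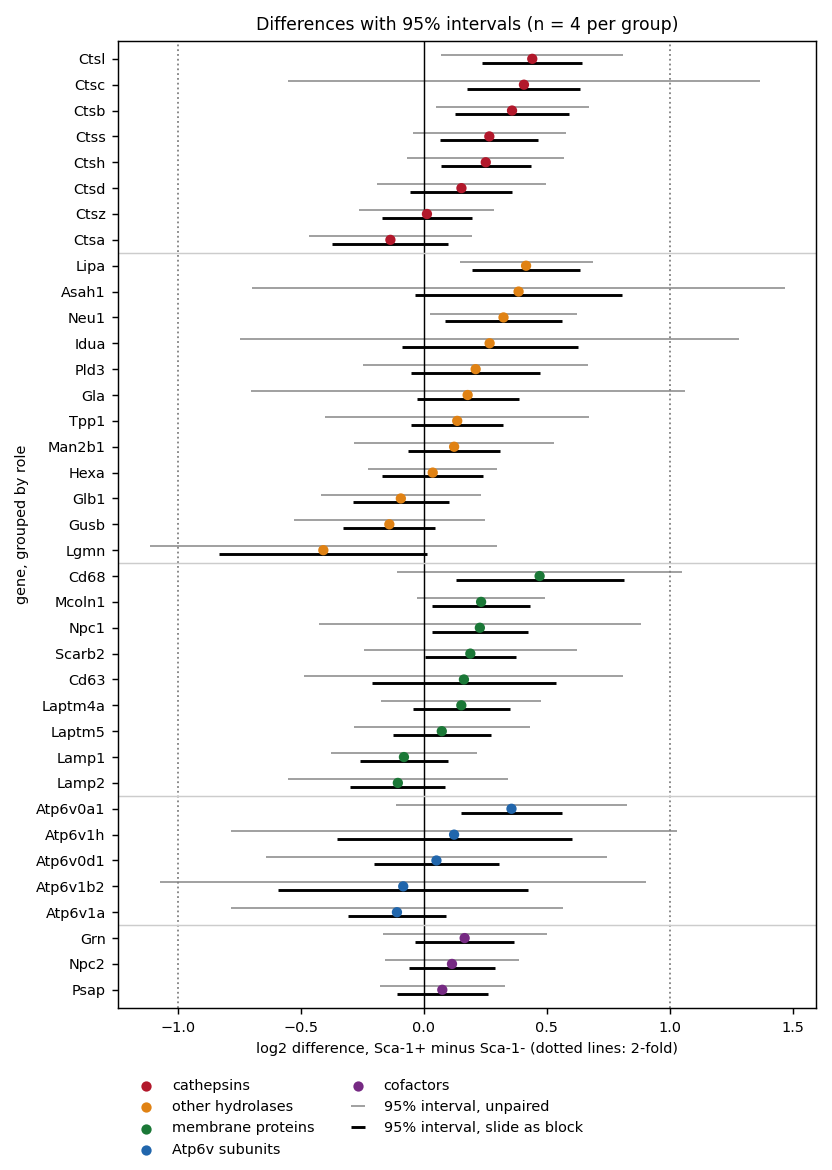
Log2 difference, Sca-1+ minus Sca-1-, for each of the 37 genes grouped by role, with the 95% confidence interval of the unpaired limma fit in grey and of the blocked limma fit (slide as block) in black (n = 4 per group). Most points lie right of 0, and every black interval lies inside the dotted lines that mark a 2-fold change.

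The intervals bound how large a difference these arrays allow. In the unpaired limma fit, the 95% interval lay within a 2-fold change in either direction for 29 of 37 members, against 75.6% of all tested genes. The 8 others were Ctsc, Asah1, Idua, Gla, Lgmn, Cd68, Atp6v1h and Atp6v1b2. With the slide as a block it lay within 2-fold for all 37 members, against 91% of tested genes, and the outermost bounds were -0.83 and 0.81.

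Cathepsins had the highest median of the roles, at 0.26. Of the 8, 7 had positive differences and 5 (Ctsl, Ctsc, Ctsb, Ctss and Ctsh) were higher in Sca-1+ on all 4 slides. Ctsl, the endopeptidase cathepsin L, had levels of 7.18, 7.28, 7.13 and 7.69 in the Sca-1- samples of slides 1 to 4 and 7.72, 7.77, 7.61 and 7.96 in the Sca-1+ samples. The groups overlapped through Sca-1- replicate 4 alone, which lay above Sca-1+ replicate 3. The difference was 0.44 ± 0.16 SE (1.36-fold, 95% interval 0.07 to 0.81, adjusted p = 0.398 in limma), and with the slide as a block its interval was 0.24 to 0.64 (adjusted p = 0.0405).

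Ctsb, cathepsin B, had levels of 7.85, 7.97, 8.07 and 8.32 in the Sca-1- samples of slides 1 to 4 and 8.40, 8.33, 8.46 and 8.46 in the Sca-1+ samples. Every Sca-1+ sample lay above every Sca-1- sample, by a narrow gap at Sca-1- replicate 4, whereas 1.91% of all tested genes were higher without overlap. Its difference was 0.36 ± 0.14 SE (1.28-fold), with an adjusted p of 0.426 unpaired and 0.0889 with the slide as a block in limma. Ctss, which cleaves the class II invariant chain, differed by 0.27 ± 0.14 SE and Ctsh, an aminopeptidase, by 0.25 ± 0.14 SE. The limma adjusted p with the slide as a block was 0.119 for Ctss and 0.112 for Ctsh.

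Ctsc, the dipeptidyl peptidase that activates granule serine proteases, depended on the slide more than on the group. Its levels were 2.31, 2.44, 2.65 and 3.94 in the Sca-1- samples of slides 1 to 4 and 2.76, 3.01, 3.07 and 4.11 in the Sca-1+ samples. Both samples of slide 4 lay above the other 6, and within every slide Sca-1+ was the higher. The difference was 0.41 with an unpaired interval of -0.55 to 1.37 and a blocked one of 0.18 to 0.64 (adjusted p = 0.0646 with the slide as a block in limma). Leaving out Sca-1+ replicate 4 gave 0.12, and leaving out Sca-1- replicate 4 gave 0.78.

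The 3 other cathepsins were closer to 0. Ctsd, the aspartic protease cathepsin D, differed by 0.15 and Ctsz, a carboxypeptidase, by 0.01, with an unpaired interval of -0.26 to 0.29. Ctsa, a serine carboxypeptidase that also protects Glb1 and Neu1 proteins, had levels of 7.14, 7.36, 7.02 and 7.08 in the Sca-1- samples of slides 1 to 4 and 7.003, 7.18, 7.12 and 6.75 in the Sca-1+ samples. These groups overlapped and the difference was -0.14 ± 0.14 SE, but a dimmer Ctsa probe lay at 0.28 and was positive on all 4 slides. The mean over both Ctsa probes gave 0.07, so the sign of Ctsa depends on the probe.

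Cathepsins lay above the other roles by small amounts. The cathepsin median exceeded that of the other hydrolases by 0.10, or by 0.17, 0.13, 0.22 and 0.07 within slides 1 to 4. Against the membrane proteins it was 0.10 higher over all samples and 0.17, 0.0048, 0.14 and 0.05 higher within slides. Against the Atp6v subunits it was 0.21 higher over all samples, with a difference of -0.12 on slide 2, and 0.53, 0.29 and 0.12 higher on slides 1, 3 and 4. These are descriptions of 4 slides with no test.

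**Figure D2:**
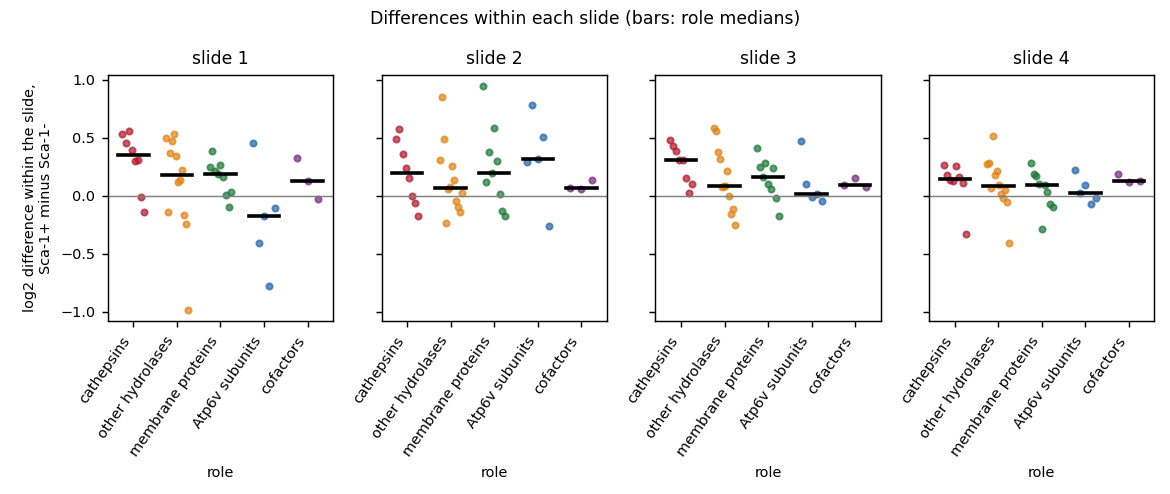
Log2 difference within each slide, Sca-1+ minus Sca-1-, for every gene (points) with the median of each role (black bars). The cathepsin median is above 0 on all 4 slides, from 0.15 on slide 4 to 0.35 on slide 1, while that of the Atp6v subunits runs from -0.18 on slide 1 to 0.31 on slide 2.

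Among the 12 other hydrolases 9 had positive differences, 6 were higher in Sca-1+ on all 4 slides and the median was 0.16. Lipa, the acid lipase that frees cholesterol and fatty acids from esters, had levels of 3.35, 3.53, 3.24 and 3.46 in the Sca-1- samples of slides 1 to 4 and 3.85, 3.84, 3.82 and 3.73 in the Sca-1+ samples. The groups did not overlap. The difference was 0.42 ± 0.12 SE (1.33-fold, 95% interval 0.15 to 0.69), with a limma adjusted p of 0.205 unpaired and 0.0546 with the slide as a block. Over the 21 alternative settings it stayed between 0.36 and 0.46.

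Neu1, the lysosomal sialidase, had levels of 3.70, 3.64, 3.63 and 4.01 in the Sca-1- samples of slides 1 to 4 and 4.07, 4.13, 4.00 and 4.08 in the Sca-1+ samples. Only Sca-1- replicate 4 reached into the Sca-1+ range. The difference was 0.32 ± 0.13 SE, with a limma adjusted p of 0.481 unpaired and 0.114 with the slide as a block. When limma weighted arrays by their quality, Ctsl, Ctsb, Lipa and Neu1 all passed (adjusted p = 0.0245, 0.0281, 0.0181 and 0.0391). These were 4 of 37 members, in a fit that called 1521 of all 19825 tested genes.

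Lgmn encodes legumain, an asparaginyl endopeptidase that takes part in TLR9 cleavage, and it had the most negative difference of the panel. Its levels were 4.85, 4.46, 3.94 and 3.76 in the Sca-1- samples of slides 1 to 4 and 3.87, 4.48, 3.68 and 3.35 in the Sca-1+ samples. The groups overlapped widely, and slide 2 showed a difference of 0.02 against -0.99, -0.26 and -0.41 on slides 1, 3 and 4. The mean difference was -0.41 ± 0.31 SE (limma adjusted p = 0.925 unpaired and 0.218 with the slide as a block), and leaving out Sca-1- replicate 1 gave -0.21, leaving out Sca-1+ replicate 2 gave -0.62. Ctsb, Ctsl, Ctss and Lgmn are among the proteases described as cutting endosomal TLR. Of these 4, 3 were higher in Sca-1+ on all 4 slides and Lgmn was not, where 18.4% of all tested genes were.

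The glycosidases were mostly near 0. Hexa, a subunit of beta-hexosaminidase, differed by 0.04, Man2b1, an alpha-mannosidase, by 0.12, Glb1, the beta-galactosidase, by -0.09 and Gusb, the beta-glucuronidase, by -0.14. Gusb was lower on all 4 slides (-0.25, -0.14, -0.12 and -0.06). Gla, the alpha-galactosidase, differed by 0.18 and Idua, the iduronidase, by 0.27, each with an unpaired SE (0.39 and 0.44) larger than the difference. Asah1, acid ceramidase, differed by 0.39 ± 0.47 SE, and its second probe gave 0.31.

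The remaining members of the role were Tpp1 and Pld3. Tpp1, a tripeptidyl peptidase, differed by 0.14 and Pld3, an exonuclease of single-stranded nucleic acids in endolysosomes, by 0.21. Both were higher on all 4 slides, and neither passed at an unadjusted p under 0.05 in limma.

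Of the 9 membrane proteins 7 had positive differences, 6 were higher in Sca-1+ on all 4 slides and the median was 0.16. Cd68, a heavily glycosylated LAMP family protein, had the largest difference of the panel. Its levels were 1.76, 1.72, 2.16 and 2.58 in the Sca-1- samples of slides 1 to 4 and 2.01, 2.67, 2.57 and 2.86 in the Sca-1+ samples. The groups overlapped, and the difference of 0.47 ± 0.25 SE (limma adjusted p = 0.734) ranged from 0.25 on slide 1 to 0.95 on slide 2. Macrophages also express Cd68. Of 13 macrophage and monocyte markers with a probe, 6 were well above background on at least 4 arrays. Of these 6, 2 had positive differences (Ms4a7 at 0.57 and C1qb at 0.16), and the median was -0.17. Csf1r, Cd14, Marco and Lyz2 had negative ones. The mean level over all 13, undetected ones included, was -3.30 to -3.06 in Sca-1- and -3.45 to -3.01 in Sca-1+ samples, with Mertk well above background on 0 arrays. Csf1r, a measured marker of that list, had levels of 4.81, 4.78, 4.66 and 4.04 in the Sca-1- samples of slides 1 to 4 and 3.74, 3.65, 3.68 and 2.45 in the Sca-1+ samples, with no overlap (limma adjusted p = 0.171 unpaired and 0.00638 with the slide as a block). The part of such cells in the Cd68 difference was not tested.

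Mcoln1, the calcium channel of lysosomes known as TRPML1, had levels of 4.32, 4.56, 4.46 and 4.41 in the Sca-1- samples of slides 1 to 4 and 4.70, 4.68, 4.71 and 4.59 in the Sca-1+ samples. The groups did not overlap, although the gap between them was narrow. Its difference was 0.23 ± 0.11 SE (1.18-fold), with a limma adjusted p of 0.662 unpaired and 0.158 with the slide as a block. Ctsb, Lipa and Mcoln1 were the 3 members of 37 (8.11%) that were higher in Sca-1+ without overlap, against 1.91% of tested genes. Lower without overlap were 0 members, against 5.03% of tested genes.

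Lamp1 and Lamp2 are major structural proteins of the lysosomal membrane. Lamp1 lay at -0.08, negative on all 4 slides (-0.10, -0.13, -0.02 and -0.07), and Lamp2 at -0.11. Lamp2 levels were 4.45, 4.56, 4.52 and 5.05 in the Sca-1- samples of slides 1 to 4 and 4.48, 4.38, 4.34 and 4.95 in the Sca-1+ samples. The groups overlapped, with differences of 0.03, -0.17, -0.18 and -0.10 within slides 1 to 4. A second Lamp2 probe, assigned to another transcript, gave 0.05.

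Cholesterol transporter Npc1 differed by 0.23, the enzyme receptor Scarb2 by 0.19, the tetraspanin Cd63 by 0.16, Laptm4a by 0.15 and Laptm5 by 0.07. Of these only Cd63 was not higher on all 4 slides, with -0.29 on slide 4. The unpaired limma intervals of these 5 genes included 0.

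**Figure D3:**
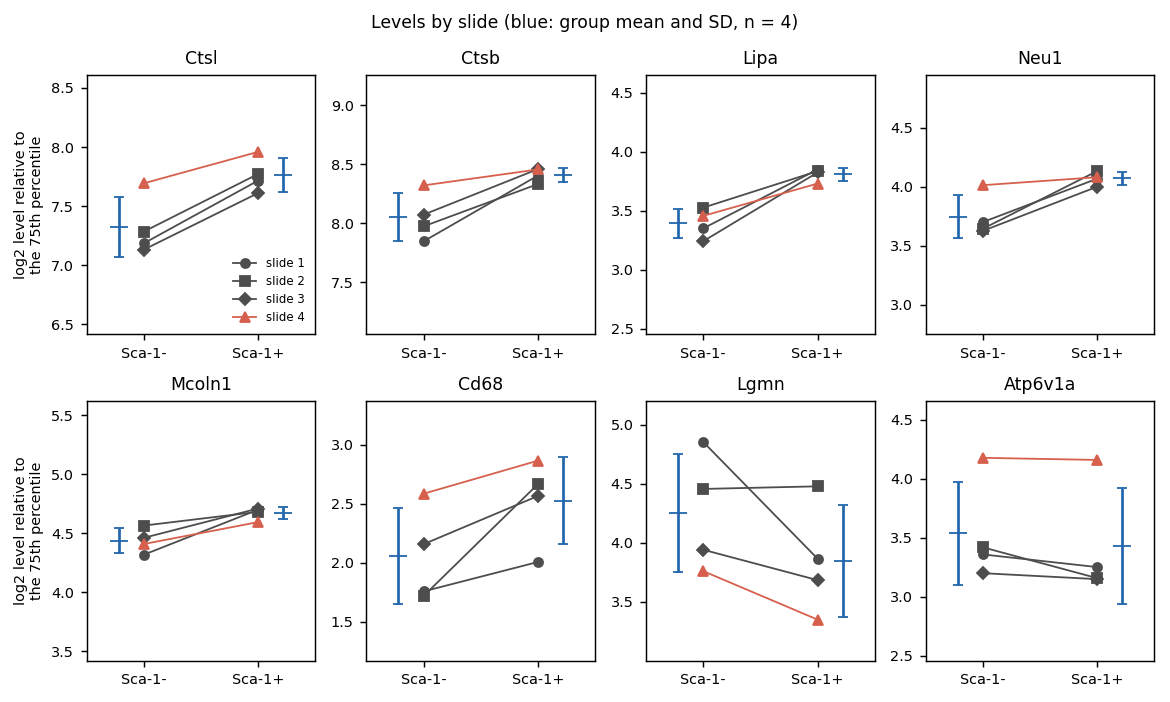
Log2 level relative to the 75th percentile for 8 genes, with lines joining the samples of a slide (slide 4 in red) and the group mean and SD in blue (n = 4); each panel spans the same range. Ctsl, Ctsb, Lipa, Neu1, Mcoln1 and Cd68 are higher in Sca-1+ on every slide, Atp6v1a is lower on every slide, and Lgmn takes both signs.

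Proton pump subunits showed the least common direction. Of the 5, 3 had positive differences and the median was 0.05, which leaving out a sample moved to -0.19 (Sca-1+ replicate 4) or 0.28 (Sca-1- replicate 4). Atp6v0a1, of the membrane sector, had levels of 2.90, 3.08, 3.09 and 3.67 in the Sca-1- samples of slides 1 to 4 and 3.35, 3.38, 3.55 and 3.89 in the Sca-1+ samples. It alone was higher on all 4 slides, but the groups overlapped through slide 4. Its difference was 0.36 ± 0.21 SE, with a limma adjusted p of 0.773 unpaired and 0.0669 with the slide as a block.

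Atp6v1a, the catalytic subunit, had levels of 3.36, 3.42, 3.20 and 4.18 in the Sca-1- samples of slides 1 to 4 and 3.25, 3.16, 3.15 and 4.16 in the Sca-1+ samples. Both samples of slide 4 stood above the rest, and the difference was -0.11 ± 0.30 SE. Atp6v0d1 differed by 0.05, Atp6v1h by 0.12 and Atp6v1b2 by -0.08. Slide 1 and slide 2 disagreed for these 3 genes, with -0.18, -0.41 and -0.78 on slide 1 and 0.31, 0.78 and 0.50 on slide 2.

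The 3 cofactors all had small positive differences, with a median of 0.11. Grn, encoding progranulin, a precursor of lysosomal granulins, had levels of 7.78, 7.86, 7.86 and 8.14 in the Sca-1- samples of slides 1 to 4 and 8.10, 7.92, 7.95 and 8.33 in the Sca-1+ samples. The groups overlapped, although Sca-1+ was higher on all 4 slides, and the difference was 0.17 ± 0.15 SE. Npc2, the soluble cholesterol carrier, differed by 0.11 (unpaired interval -0.16 to 0.39) and Psap, the precursor of the saposins that help degrade sphingolipids, by 0.08 (-0.18 to 0.33). Tfeb, read from the probe named Tcfeb, differed by 0.05 (-0.26 to 0.35).

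The slide moved many members more than Sca-1 did, at a share near that of all tested genes. The mean level on slide 4 departed from that on slides 1 to 3 by more than the group difference in 28 of 37 members (75.7%), and in 77.9% of all tested genes. All 5 Atp6v subunits were higher on slide 4, by 0.56 to 1.27, while over all tested genes the median departure was -0.06. Asah1 (1.48) and Ctsc (1.32) were also higher there, and Idua (-1.40) and Gla (-1.23) lower. Some markers of other cell types also differed on slide 4. The basophil marker Mcpt8 was at 3.15, 1.39, 2.43 and -4.09 in the Sca-1- samples of slides 1 to 4. In the Sca-1+ samples it was at 3.59, 1.28, 1.90 and -4.27. The measured macrophage and monocyte markers took no common direction on slide 4. Ms4a7 was highest there in both groups, and Csf1r was lowest there in both. Cd14, C1qb, Marco and Lyz2 were neither highest nor lowest there in both groups. The parts of the protocol version and of cell content in these departures were not tested.

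**Figure D4:**
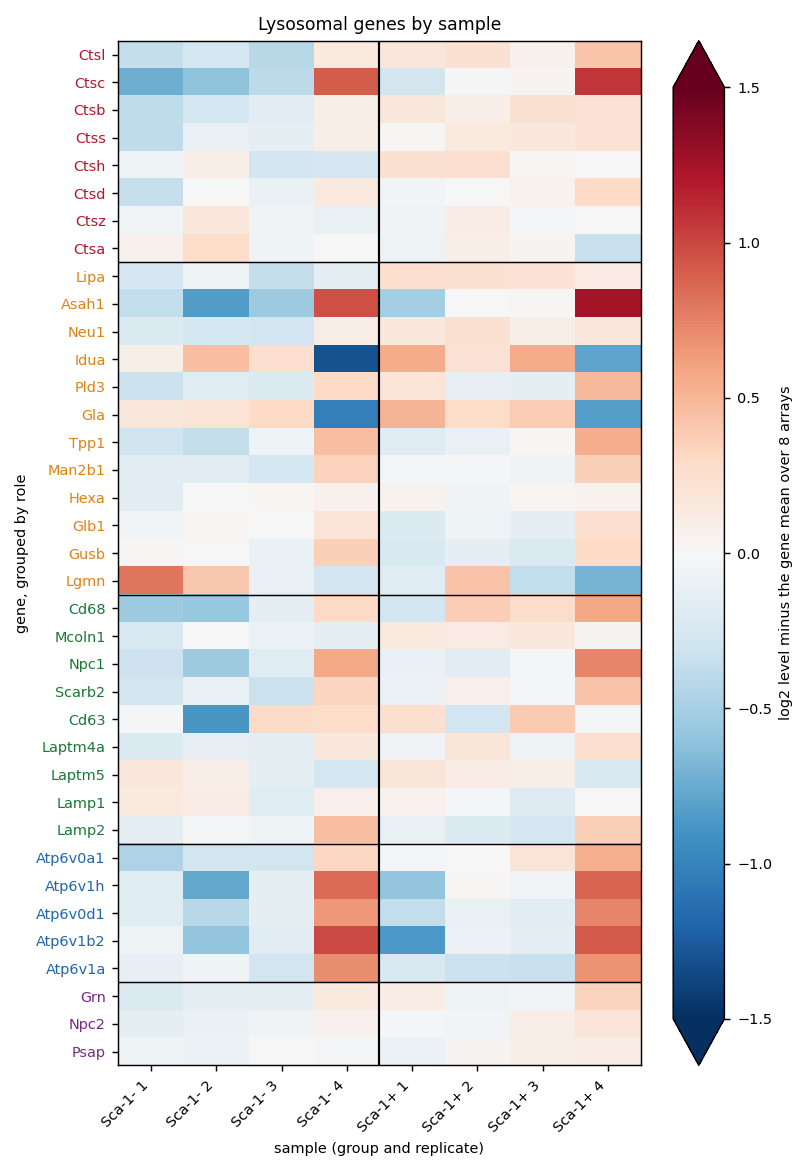
Log2 level of each gene (rows, grouped by role) in each sample (columns) minus the gene's mean over the 8 arrays; red is above that mean and blue below. The columns of replicate 4 stand out in both groups, red for the Atp6v subunits, Asah1 and Ctsc and blue for Idua and Gla, with Idua at -1.40 and Asah1 at 1.48 relative to slides 1 to 3.

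Lysosomal genes are known targets of Tfeb and related factors, which bind a palindromic element around the E-box. In RefSeq promoter windows (GRCm38.p6, 250 bases before to 50 after the start site) 32 of the 38 genes had an entry, and Asah1, Atp6v1b2, Atp6v1h, Ctsb, Ctsh and Npc1 did not. The palindrome CACGTG was present in 10 of the 32, against 8.09% of all genes with a window. Its extension TCACGTGA, which contains CACGTG, was present in 6 (Atp6v0d1, Atp6v1a, Ctsa, Ctsd, Gla and Mcoln1), against 1.12%, and the 10-base palindrome that adds a further G and C at its ends was found in 0, against 0.37%. Each motif reads the same on both strands. The 30-base windows below are examples that carry such a match wholly upstream of the start site, with the match in capitals. Windows of Lamp1 and Glb1 and further ones of Mcoln1 and Gla also did so and are not shown.
Ctsd, chr7:142387908-142387937, minus strand: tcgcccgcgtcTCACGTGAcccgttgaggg
Mcoln1, chr8:3500462-3500491, plus strand: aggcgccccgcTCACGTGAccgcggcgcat
Gla, chrX:134601182-134601211, minus strand: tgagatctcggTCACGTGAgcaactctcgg
Atp6v1a, chr16:44139373-44139402, minus strand: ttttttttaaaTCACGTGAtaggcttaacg
Ctsl, chr13:64370739-64370768, minus strand: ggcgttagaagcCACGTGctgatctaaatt
Lgmn, chr12:102439124-102439153, minus strand: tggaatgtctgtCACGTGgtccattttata

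Genes with the motif did not share a direction. The median log2 difference was -0.01 for the 10 genes with CACGTG and 0.16 for the other genes with a window, Tfeb included. For the longer TCACGTGA the medians were closer, at 0.10 with it and 0.14 without it. Ctsl (0.44), Mcoln1 (0.23), Atp6v1a (-0.11) and Lgmn (-0.41) all carry CACGTG. A match describes these letters only.

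Other lysosome genes gave a similar picture with a few larger differences. Of 102 listed genes 92 were tested, and 66 had positive differences, against 55.4% of all tested genes. In limma 0 were called as higher and 1 as lower, against 0.126% higher and 1.58% lower over all tested genes. The 1 gene was Cst7, encoding cystatin F, an inhibitor of lysosomal cysteine cathepsins. Its levels were 1.22, 0.63, 1.07 and 0.80 in the Sca-1- samples of slides 1 to 4 and -0.16, -0.25, 0.19 and -0.08 in the Sca-1+ samples, with no overlap. Cst7 fell by 1.00 on the log2 scale (SE 0.17, 2.00-fold, limma adjusted p = 0.0277).

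The Cst7 difference lay between -1.104 and -0.81 in the 21 alternatives and was called in 11 of them, with adjusted p from 0.00565 to 0.312. It was not called without Sca-1- replicate 1 or 3, without any 1 of the 4 Sca-1+ samples, without slide 1, 2 or 3, or without the filter on dim probes (limma adjusted p = 0.115). The general cysteine protease inhibitors Cst3 and Cstb, which were picked out after their values were seen, differed by -0.0052 and 0.085.

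With the slide as a block, limma called 6 of the 92, 3 higher and 3 lower, where 6.22% of all tested genes were called (2.1% higher and 4.12% lower), so the share is near that of all genes. Ctse, an aspartic cathepsin of endosomes, had levels of 2.63, 2.60, 2.70 and 2.95 in the Sca-1- samples of slides 1 to 4 and 3.34, 3.25, 3.23 and 3.17 in the Sca-1+ samples, with no overlap (0.53 ± 0.13 SE, adjusted p = 0.117 unpaired and 0.0485 blocked in limma). Ctsw, a cathepsin named for lymphocytes, was also higher without overlap (0.44, blocked adjusted p = 0.0481 in limma), as was, with overlap, Rptor, the scaffold of mTORC1 (0.61, blocked adjusted p = 0.0267). Tpcn1, an endolysosomal channel (-1.17, blocked adjusted p = 0.00231 in limma), and Arsb, a sulfatase (-0.84, blocked adjusted p = 0.0158), were lower together with Cst7.

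By list, 17 of 25 further hydrolases, 13 of 15 further membrane proteins and 9 of 13 further proton pump subunits had positive differences. The medians were 0.15, 0.21 and 0.06. Further proteases and inhibitors had 9 of 13 positive and the lowest median (0.05). Sorting genes had 9 of 12 (median 0.10) and lysosome regulators 9 of 14 (median 0.07). Over all tested genes 55.4% were positive. Smpd1, acid sphingomyelinase, was lower without overlap (-0.30 ± 0.12 SE) but not called in limma (adjusted p = 0.467). Of 12 genes for sorting enzymes to lysosomes, limma called 0 in either fit, and 0 had an unadjusted p under 0.05 in the unpaired fit. The smallest p-values of the remaining lists belonged to Cln3 (0.21), Atp6v1g2 (0.54), Atp6v0e2 (-0.40), Nagpa (0.21), Sort1 (0.39) and Rragd (0.66), given as log2 differences, and limma called 0 of these 6.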

How the data were processed

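Per the file headers, the deposited spot intensities (linear scale) come from Agilent Feature Extraction 10.7.3.1, with processed (background-subtracted) signal, mean signal, local background and spot marks. The value table deposited by the authors holds log2 values with equal quartiles in its columns and served as an alternative. The labels name 100 ng of RNA, amplified and labelled with Cy3.

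Control and outlier spots were left out, log2 values of repeated spots were averaged, and the array's 75th percentile over probes was subtracted. Genes were named through RefSeq accessions (26582 probes) or symbols (3094), with the file's name for 26005. Genes well above background on at least 4 of 8 arrays were tested (19825, of which 7 had a missing array value; no member did) with limma 3.58.1 in R 4.3.3, two-sided and unpaired, with Benjamini-Hochberg adjustment at 0.05. The script was tested on simulated data. Same-numbered samples shared a slide, per the file headers, and their deviations from the group means correlated at 0.43 to 0.89 over all tested genes, so the slide served as a block in an alternative. Among replicates 1 to 3, different numbers also correlated, at 0.12 to 0.54.

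The members and lists were chosen with earlier results of these data known. Samples are given in full for members with an unadjusted p under 0.05 or a blocked call and for the largest positive and the largest negative difference of each role (the cofactors had no negative one). Ctsc and Mcoln1 lie outside that rule and were added after their values were seen. From the lists of other lysosome genes, those called unpaired or blocked and the 2 with the smallest p per list are named. Figures used Python 3.11.15 and matplotlib 3.10.9.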

Additional observations from a re-analysis of the deposited data

Results flagged for a closer look

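Dixon's criterion at the 95% level marked 4 of the 74 groups of 4 samples examined for the members, where chance marks about 1 in 20. All 4 lay in replicate 4. The Gla level of 8.34 in Sca-1- replicate 4 was far below the other Sca-1- samples. In Sca-1+ replicate 4, the levels of Man2b1 (6.26), Npc1 (4.16) and Atp6v1a (4.16) were far above the other Sca-1+ samples. The cause was not tested.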

How the results depend on the processing

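Of 37 members, 20 kept a positive and 4 a negative difference in the unchanged setting and the 21 alternatives, and 13 took both signs; 0 were called except with the slide as a block (1) and with array weights (4). With the replicate number (slide) as a block, all genes called numbered 1233 and 6 of the other lysosome genes, against 339 and 1; the block changed no other call among members. Array weights gave 1521 and 5. No filter on dim probes gave 182 and 0. Quantile normalization and the authors' deposited values each gave 2 other lysosome genes. Median differences moved to 0.12 (membrane proteins, normexp), 0.23 (membrane proteins, array weights), and 0.17 and 0.16 (cofactors, quantile normalization and authors' values). Leaving out 1 sample or 1 slide gave 1 to 872 genes called in all and 0 to 3 other lysosome genes. The medians then ranged from 0.079 to 0.23 over all members, -0.19 to 0.28 for Atp6v subunits, 0.071 to 0.16 for cofactors, 0.093 to 0.23 for membrane proteins and 0.030 to 0.18 for other hydrolases. The cathepsin median fell to 0.18 without Sca-1+ replicate 4. Its highest value over all settings was 0.30, with array weights. The causes were not tested. The number of arrays limits the precision.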
